A study of Gallus gallus with 6 samples.

Results

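The genes described here are 9 that are known to respond to the transcription factor KLF2 in the endothelium of mammals: NOS3, THBD, S1PR1, ASS1, TXNIP, ADM, PLAT, KLHL24 and EDN1. They were picked by name from the deposited expression table of a cell line that is not endothelial. Of these 9 symbols, 6 were found among the 18495 genes of the table and 3 (NOS3, THBD and TXNIP) were not found. ADM has 2 records, so 7 rows of the table were followed, and all 7 passed the filter on low values in both groups. The libraries came from ICP1, a chicken preadipocyte line kept in medium with serum. In the KLF2 group, 3 wells were transfected with pCMV-myc-KLF2, a plasmid that expresses myc-tagged KLF2 from the cytomegalovirus promoter. In the EV group, 3 wells received pCMV-myc alone, and both groups were harvested after 48 h.

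KLF2 is a zinc-finger factor that flowing blood induces in endothelial cells, where it helps to keep vessels relaxed, free of clots and uninflamed. In human endothelium it raises NOS3 (endothelial nitric oxide synthase), THBD (thrombomodulin, which turns thrombin into an activator of protein C) and ASS1 (which makes the precursor of arginine), and lowers EDN1, the precursor of a strong vasoconstrictor peptide. It also drives S1PR1, the receptor by which lymphocytes leave lymphoid organs. In preadipocytes KLF2 is known as a factor that restrains differentiation into fat cells.

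Each library held 13255169 to 14168807 reads assigned to genes. All replicates are wells of 1 line, so the p-values refer to wells and not to independent lines. In the limma fits they also rest on the variance of all genes, toward which that of each row was drawn. RNA of a whole well was measured: fewer cells that express a gene and less of its RNA per cell cannot be told apart, and the sources used here give no share of cells that took up the plasmid. The libraries were spread along 1 main axis. The first principal component of 10885 other genes held 67.1% of the variance, with scores of -42.4, -15.6 and 27.1 in KLF2 1 to 3 and 38.5, -5.51 and -2 in EV 1 to 3. Mean scores were -10.3 in KLF2 and 10.3 in EV libraries, and the groups overlapped (exact two-sided permutation p = 0.4). The number of genes with a read was 15469, 15532 and 16090 in KLF2 1 to 3, against 16011, 15645 and 15850 in EV 1 to 3. It was lowest in KLF2 1 and KLF2 2, which scored lowest, and highest in KLF2 3 and EV 1, which scored highest. This relation was not tested.

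Of 20 preadipocyte and fibroblast markers, 16 were at a mean of at least 1 TPM (a level per gene length that sums to 1000000 in each library). Their summed level was 14616 to 15788 TPM in KLF2 libraries and 15756 to 16265 TPM in EV libraries, most of it from VIM, with a mean of 11055 TPM. ENG, DLK1, EBF2 and TCF21 were the 4 markers under 1 TPM. Of 22 endothelial markers 18 were found by name, 10 of them at 1 TPM or more, and none was at 0 in every library. Their summed level was 208 to 236 TPM in KLF2 libraries and 207 to 243 TPM in EV libraries. Most of it came from the transcription factors FLI1, ERG and LMO2, with means of 109, 48.7 and 28.8 TPM. The endothelial surface genes CLDN5, CDH5, LYVE1, EMCN, TIE1 and PECAM1 averaged 13.6, 5.70, 4.90, 2.05, 1.31 and 1.09 TPM. The other endothelial markers averaged less than that except EGFL7 at 1.47 TPM, with KDR at 0.527 TPM and VWF, the clotting protein stored in endothelium, at 0.0882 TPM. Adipocyte markers (7 of 8 found) summed to 19.5 to 23.4 TPM in KLF2 libraries, against 23.6 to 27.6 TPM in EV libraries, and their part in the results was not tested. Among them ADIPOQ, the fat cell hormone adiponectin, averaged 1 ± 0.0417 normalized counts in KLF2 libraries and 4.97 ± 1.88 in EV libraries (SD, n = 3). Its limma unadjusted p was 0.03 and its adjusted p 0.962. The groups had no overlap, as for 6.65% of all genes tested. ADIPOQ was near the floor, at a mean of 0.271 TPM, and its difference rests on a few reads a library. It was chosen for mention after its values were seen. Leukocyte markers (7 of 8 found) summed to 86.8 to 106 TPM in KLF2 libraries and 81.2 to 116 TPM in EV libraries, most of it from SPI1, with a mean of 80.9 TPM. Muscle markers (3 of 7) reached at most 43.4 TPM and epithelial markers (4 of 6) at most 1.3 TPM in any library.

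KLF2 itself had normalized counts of 1052, 1618 and 2412 in KLF2 1 to 3, against 1093, 675 and 697 in EV 1 to 3. The EV 1 library lay above the KLF2 1 library, so the groups overlapped. The difference was 2.00-fold (95% interval 1.21 to 3.29), which did not pass the threshold of 0.05 in limma with Benjamini-Hochberg adjustment over all genes (unadjusted p = 0.0126, adjusted p = 0.962). The exact two-sided permutation p of this difference was 0.2. With any 1 library left out it did not pass (lowest limma adjusted p = 0.35, without KLF2 3). It passed only without EV 1 and KLF2 3 together, at a log2 fold change of 0.93 (limma adjusted p = 0.0184). That setting leaves out the EV library that made the groups overlap. KLF2 lies on chromosome 28 from 4830903 to 4833376 (GRCg7b), and reads of the plasmid and of the chromosomal gene were counted together. The range of KLF2 over the 6 libraries was 3.57-fold from lowest to highest, so each target was also set against the measured KLF2 level of its own library.

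No target row passed the test between the plasmids: 0 of 7 passed the threshold and 0 of 7 had an unadjusted p under 0.05 in limma. Over all 16765 genes tested, 0% passed and 2.11% had an unadjusted p under 0.05 (0.913% higher and 1.2% lower in KLF2 libraries). The count tests on recovered reads, edgeR and DESeq2, likewise called 0 of 7 rows each, at the adjusted threshold and at an unadjusted p under 0.05. Among all genes, 1.3% of 11860 in edgeR and 0.936% of 18492 in DESeq2 fell under that unadjusted p. The groups overlapped for all 7 rows, while 6.65% of all genes tested had no overlap. The median log2 fold change of the 7 rows was -0.082, and that of all genes was -0.006. Means on the log2 scale were lower in KLF2 libraries for 6 rows (50.9% of all genes) and higher for S1PR1, but for 5 rows the sign turned when 1 library was left out. The upper 95% bounds of the 7 fold changes, not adjusted for their number, ran from 1.14-fold for ASS1 to 1.73-fold for the 3′ record of ADM.

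**Figure D1:**
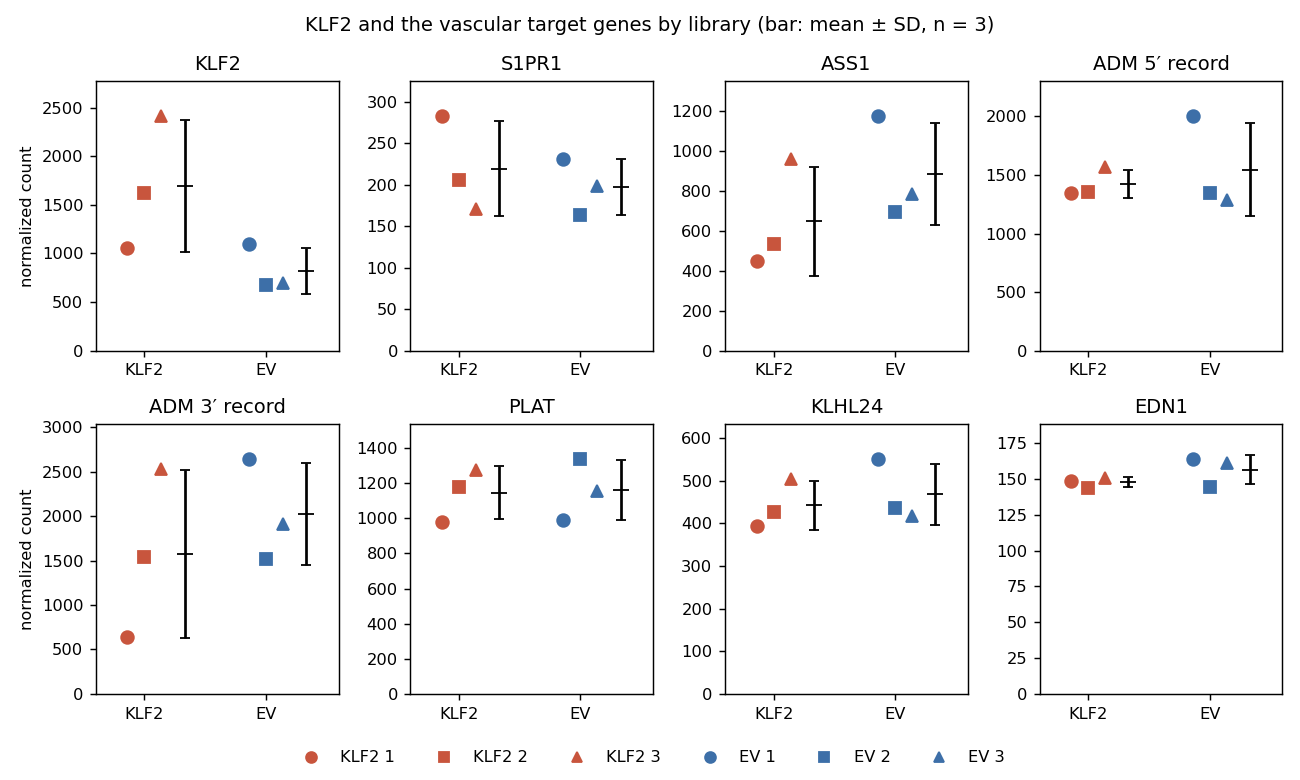
Normalized counts (vertical axes, from 0) of KLF2 and the 7 target rows in the KLF2 libraries (red) and the EV libraries (blue), 1 point per library, with the mean ± SD of 3 beside them. KLF2 averaged 1694 in KLF2 and 822 in EV libraries, while the points of both groups overlap in every target panel.

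The S1PR1 gene encodes a receptor for the lipid sphingosine 1-phosphate. It had normalized counts of 282, 205 and 170 in KLF2 1 to 3, against 231, 163 and 199 in EV 1 to 3. KLF2 1 was the highest library and EV 2 the lowest. Within the KLF2 group the library with the most KLF2 had the least S1PR1, while within the EV group it had the most. On the log2 scale S1PR1 was 0.13 higher in KLF2 libraries, with an SE of 0.24 and a 95% interval of -0.39 to 0.65 (limma adjusted p = 0.966). Per length it was the lowest of the targets, at 1.18 to 2.16 TPM. That value rests on an annotated length of 30287 bases, and the gene (ENSGALG00010023590, chromosome 8 from 11400666 to 11461438) shares 8081 bases with DPH5 on the other strand. Nothing in the protocols marks strand, so reads of that stretch cannot be told apart.

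Argininosuccinate synthase, the product of ASS1, makes the precursor from which arginine, the substrate of nitric oxide synthases, is released. ASS1 had 448, 535 and 957 normalized counts in KLF2 1 to 3, against 1172, 692 and 782 in EV 1 to 3. KLF2 1 and KLF2 2 lay below every EV library and KLF2 3 lay above EV 2 and EV 3. A log2 fold change of -0.49 (SE 0.30, 95% interval -1.16 to 0.18) did not pass in limma, with an adjusted p of 0.962 that ran from 0.108 to 1 under other settings. The exact two-sided permutation p was 0.3, where 3 libraries against 3 allow none below 0.1. The gene (ENSGALG00010027383, chromosome 17 from 6485724 to 6508229) was well expressed at 49.4 to 122 TPM, above 85.1% of genes on average.

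ADM encodes adrenomedullin, a vasodilator peptide, and was the most abundant target. The table splits it into 2 records on the minus strand of chromosome 5 that share 234 bases, whereas RefSeq has 1 gene there, from 8654039 to 8656695. The 5′ record (ENSGALG00010021094, from 8655517 to 8656667) had 1349, 1359 and 1565 normalized counts in KLF2 1 to 3, against 2002, 1350 and 1283 in EV 1 to 3. Apart from EV 1, these libraries lay close together. The 3′ record (ENSGALG00010021090, from 8654784 to 8655750) had 641, 1544 and 2531 in KLF2 1 to 3, against 2639, 1516 and 1917 in EV 1 to 3. It ranged 4.12-fold over the 6 libraries, the widest of the targets, where the 5′ record ranged 1.56-fold. The 3′ record held 0.475, 1.14 and 1.62 times the count of the 5′ record in KLF2 1 to 3, against 1.32, 1.12 and 1.49 times in EV 1 to 3 (exact two-sided permutation p = 0.7). KLF2 1 was thus the only library in which the 3′ record was the smaller. An unnamed record (ENSGALG00010023963) also overlaps the RefSeq gene, with 1372, 1863 and 2071 normalized counts in KLF2 1 to 3, against 2023, 1727 and 1759 in EV 1 to 3, and was not counted as ADM.

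Neither record passed the test between groups. Log2 fold changes were -0.091 for the 5′ record (SE 0.18, 95% interval -0.48 to 0.29) and -0.54 for the 3′ record (SE 0.53, 95% interval -1.87 to 0.79), with limma adjusted p-values of 0.966 and 0.962. Added together, a choice made after seeing that the gene is split, they had 2996 ± 1056 normalized counts in KLF2 libraries and 3568 ± 943 in EV libraries (SD, n = 3; log2 fold change -0.28, SE 0.27). Per annotated length the records reached 910 to 1364 TPM (5′) and 467 to 1809 TPM (3′), above 99.4% and 99.6% of genes on average. These annotated lengths are short, 320 and 318 bases, so the TPM of the records can be overstated.

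PLAT encodes tissue plasminogen activator, the protease that starts the dissolution of clots. It had 979, 1180 and 1275 normalized counts in KLF2 1 to 3, against 993, 1335 and 1157 in EV 1 to 3. Libraries of both groups interleaved, and the fold change was 0.986 (95% interval 0.772 to 1.26; log2 fold change -0.02, SE 0.16, limma adjusted p = 0.991). The gene (ENSGALG00010017948, chromosome 22 from 2879697 to 2893651) was expressed at 53.6 to 72.5 TPM, and 63 bases of it overlap AP3M2 on the other strand.

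KLHL24 encodes a kelch-like adaptor that brings substrates to the cullin 3 ubiquitin ligase, known in human skin for its action on a keratin. It had 395, 427 and 504 normalized counts in KLF2 1 to 3, against 550, 436 and 418 in EV 1 to 3. KLF2 3 and EV 1 were the highest libraries, and the groups differed by -0.08 on the log2 scale (SE 0.18, 95% interval -0.47 to 0.31, limma adjusted p = 0.969). The gene (ENSGALG00010024326, chromosome 9 from 2209255 to 2223049) was expressed at 20.1 to 26.4 TPM, above 63.8% of genes on average.

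EDN1, which is known to fall in endothelium, was the steadiest of the targets. Its normalized counts were 148, 144 and 151 in KLF2 1 to 3, against 164, 145 and 161 in EV 1 to 3. Over the 6 libraries the SD was 5.56% of the mean, less than the 8.08% that counting error alone gives at this depth. The fold change was 0.945 (95% interval 0.689 to 1.29; log2 fold change -0.082, SE 0.21, limma adjusted p = 0.971). A fall was not detectable in this fit at 3 wells a group, and a fall to less than 0.689 times lay outside the interval. The variance of EDN1 was drawn toward that of all genes, so the interval does not measure its spread among wells alone. The exact two-sided permutation p of the difference was 0.3. EDN1 (ENSGALG00010009717, chromosome 2 from 62406641 to 62411674) was expressed at 15.5 to 17.9 TPM.

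The other 3 symbols gave no row to follow. NOS3 and TXNIP were found neither by name in the table nor in the RefSeq gene table of the same build, so their expression was not analysed here. THBD is in RefSeq on chromosome 3 from 3514978 to 3517527. That stretch lies inside the record that the deposited table names SSTR4, a somatostatin receptor, which spans 3509384 to 3520751. This record had 0, 2 and 0 reads in KLF2 1 to 3, against 3, 8 and 2 reads in EV 1 to 3. Whether reads of THBD are counted there was not tested.

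Per length, the order of the targets by mean TPM was ADM, ASS1 (80.0), PLAT (63.2), KLHL24 (22.1), EDN1 (16.4) and S1PR1 (1.53). ASS1 and PLAT cannot be ranked beyond their spread, since ASS1 ranged from 49.4 to 122 TPM and PLAT from 53.6 to 72.5 TPM. The other neighbours in this order did not overlap over the 6 libraries. The place of S1PR1 rests on its annotated length of 30287 bases. By mean normalized count S1PR1, at 208, lay above EDN1, at 152. The TPM of ADM likewise rests on the annotated lengths of its records, 320 and 318 bases.

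**Figure D2:**
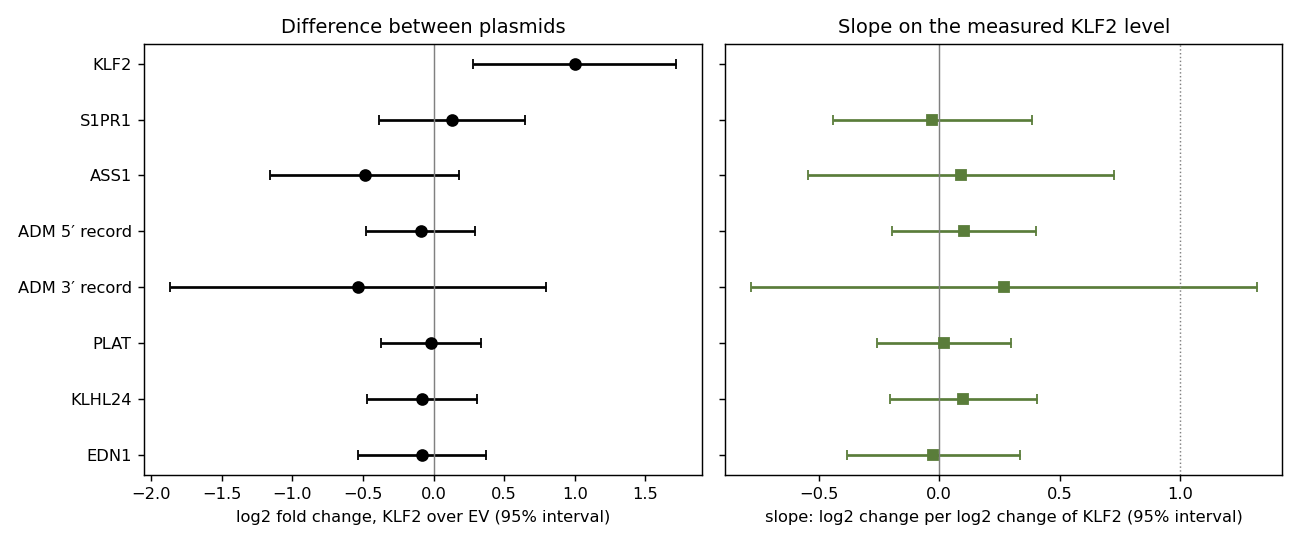
Left, log2 fold change of KLF2 over EV libraries for KLF2 and the 7 target rows, with 95% intervals (points and bars). Right, slope of log2 expression per log2 unit of KLF2 over the 6 libraries for the 7 target rows, likewise with 95% intervals. KLF2 is the covariate there and has no slope. All target intervals contain 0, and the dotted line marks a slope of 1, which the interval of the 3′ record of ADM alone reaches.

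Measured against the KLF2 level of the same library, no target passed the test. In limma with log2 KLF2 as the covariate, 0 of 7 rows passed and 0 of 7 had an unadjusted p under 0.05, where 0% and 1.38% of 16764 genes did. In edgeR 0 of 7 rows and 0 genes passed, with 0.641% of 11859 genes at an unadjusted p under 0.05. Slopes per log2 unit of KLF2 were -0.029 for S1PR1 (95% interval -0.44 to 0.38), 0.09 for ASS1 (-0.55 to 0.73), 0.10 for the 5′ record of ADM (-0.20 to 0.40) and 0.27 for its 3′ record (-0.78 to 1.32). PLAT had a slope of 0.019 (-0.26 to 0.30), KLHL24 one of 0.10 (-0.20 to 0.40) and EDN1 one of -0.024 (-0.38 to 0.33). The interval lay below a slope of 1, a doubling per doubling of KLF2, for every row except the 3′ record of ADM. Slopes were above 0 for 5 of 7 rows and for 50.1% of all genes, with medians of 0.09 and 0.00. For 5 of the 7 rows the sign of the slope turned when 1 library was left out.

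Pearson correlations with KLF2 over the 6 libraries lay between -0.22 for EDN1 and 0.39 for KLHL24, with exact permutation p-values of 0.674 and 0.444. Spearman correlations lay between -0.029 for PLAT and 0.66 for the 5′ record of ADM, with exact permutation p-values of 1 and 0.175. These were 7 relations by each measure, adjusted over all 16764 genes. Every adjusted p was at least 0.951, and 0 of 7 rows had an unadjusted p under 0.05, against 2.44% of all genes by Pearson and 1.97% by Spearman. The exact p cannot fall below 0.00139 by Pearson or 0.00278 by Spearman. A single row could therefore not pass after this adjustment unless many genes reached such values with it. Without KLF2 3 and EV 2, the libraries farthest from the median KLF2 level, Pearson's r was 0.10 for KLHL24, 0.16 for the 5′ record of ADM, -0.32 for ASS1, -0.11 for the 3′ record, 0.071 for S1PR1, 0.066 for PLAT and -0.71 for EDN1.

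**Figure D3:**
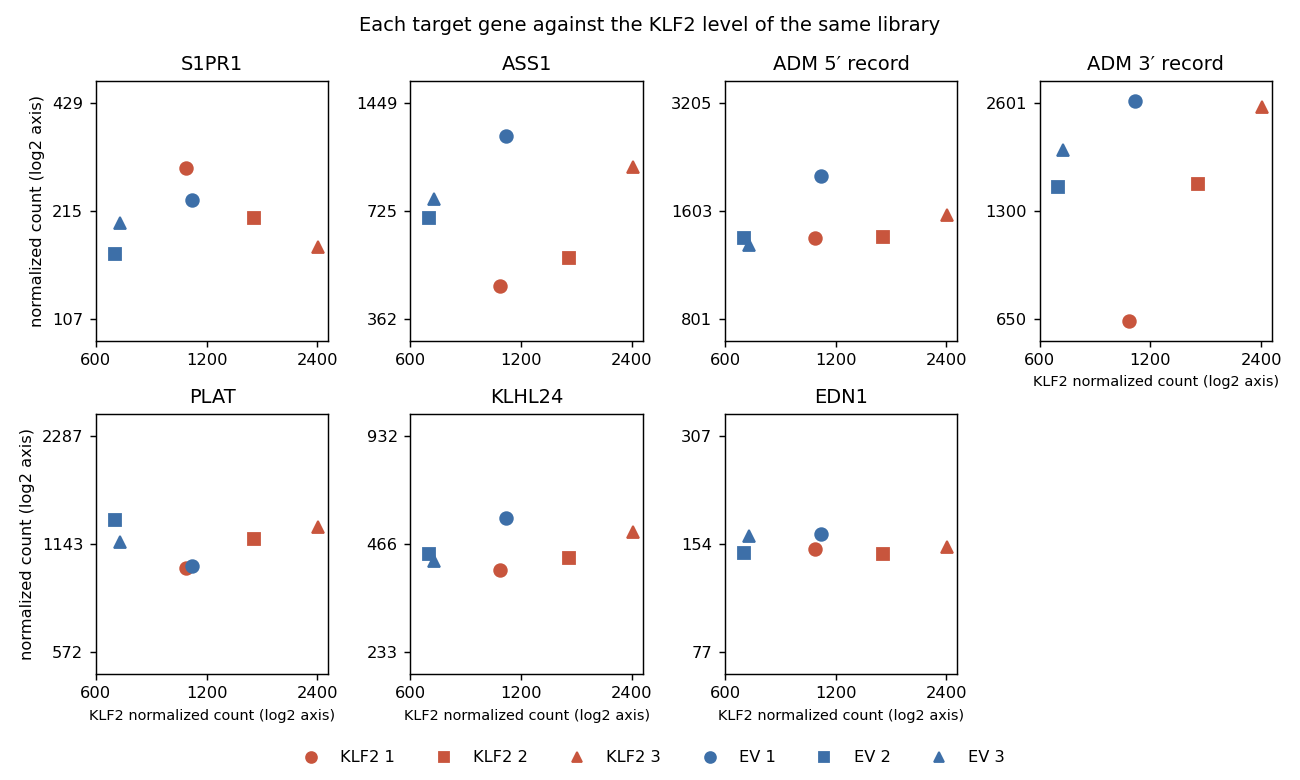
Normalized count of each target row against the KLF2 normalized count of the same library (both axes log2), KLF2 libraries in red and EV libraries in blue, each marker 1 library. KLF2 1 and EV 1 hold almost equal KLF2, 1052 and 1093, yet ASS1 is at 448 in KLF2 1 and at 1172 in EV 1.

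Inside each group a different picture appeared. ASS1, KLHL24, EDN1 and both records of ADM were highest in KLF2 3 among KLF2 libraries and in EV 1 among EV libraries, which were also the libraries with the most KLF2 of their group. As deviations from the group means, the Pearson correlation with KLF2 was 0.96 for ASS1, 0.96 for the 3′ record of ADM, 0.94 for KLHL24 and 0.75 for the 5′ record. It was 0.42 for EDN1, 0.19 for PLAT and -0.43 for S1PR1. For PLAT and S1PR1 the groups differed in sign. Pearson's r was 0.98 and -0.99 within the KLF2 libraries, against -0.90 and 0.86 within the EV libraries (n = 3 each). In a limma fit with the group as a second term, ASS1 (slope 0.94, adjusted p = 6.03e-07) and both records of ADM (5′ slope 0.39, adjusted p = 0.0208; 3′ slope 1.45, adjusted p = 5.84e-10) passed, 3 of 7 rows. So did 23.5% of all genes, 13.5% with a slope above 0. KLHL24 did not pass there (slope 0.36, adjusted p = 0.0834). In this fit, as in the other limma fits, the variance of each row was drawn toward that of all genes. Genes that share the main axis are also not independent. The p-values of this fit therefore do not measure the spread among wells alone.

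The pattern inside groups moved with the axis that spreads the libraries, along which the number of genes with a read also differed. The deviations of KLF2 from its group means had a Pearson correlation of 0.99 with those of the first component, so the slope within groups and that component cannot be told apart. Across all 6 libraries KLF2 itself showed no detectable relation to the component (Pearson r 0.28, exact permutation p = 0.586; Spearman rho 0.26, p = 0.658; r 0.54 without KLF2 1 and EV 1). ASS1 followed it, with libraries in exactly the order of the component (r 0.98, exact permutation p = 0.00417, adjusted over all genes 0.045; rho 1.00, p = 0.00278, the smallest a rank correlation of 6 libraries can give). The 3′ record of ADM had r 0.94 (exact permutation p = 0.00278, adjusted 0.0408; rho 0.94, p = 0.0167) and KLHL24 had r 0.95 (exact permutation p = 0.00556, adjusted 0.0499; rho 0.83, p = 0.0583). These 3 of 7 rows passed by Pearson, against 11.1% of all genes, and 31.3% of all genes had an unadjusted p under 0.05. By Spearman only ASS1 passed (adjusted p = 0.0495, exact permutation), against 5.61% of all genes, and 22.7% had an unadjusted p under 0.05. The 10885 genes that built the component were among all genes here, so many of their small p-values arose by construction. This lowers the adjusted p-values of the target rows, so passing here is a description and not a test.

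The 5′ record of ADM had r 0.79 with the component (exact permutation p = 0.0514, rho 0.60, p = 0.242) and EDN1 had r 0.59 (p = 0.215, rho 0.77, p = 0.103). PLAT had r 0.15 (exact permutation p = 0.749, rho 0.14, p = 0.803) and S1PR1 had r -0.43 (p = 0.397, rho -0.26, p = 0.658). With KLF2 1 and EV 1 left out, the libraries at the ends of the component, r was 0.93 for ASS1, 0.94 for the 3′ record and 0.92 for KLHL24. It was 0.83 for the 5′ record, 0.30 for EDN1, 0.35 for PLAT and -0.53 for S1PR1.

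**Figure D4:**
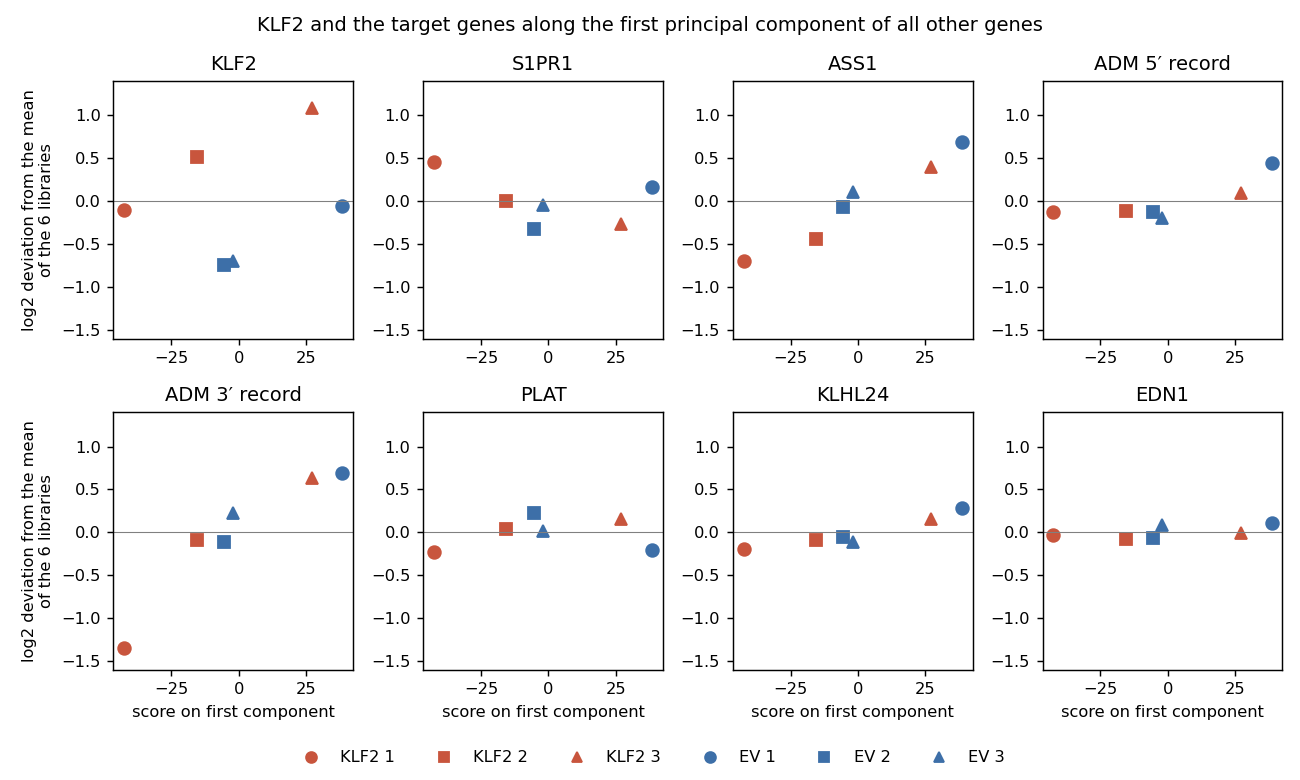
Log2 deviation of KLF2 and each target row from its mean over the 6 libraries (vertical axis) against the score of the library on the first principal component of 10885 other genes (horizontal axis), KLF2 libraries in red and EV libraries in blue. ASS1 and the 3′ record of ADM climb along the axis across both groups (r 0.98 and 0.94), while KLF2 forms a separate rise in each group.

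The genes whose pattern over the 6 libraries was most like each target were taken from those with a symbol and a mean of at least 20. As the highest of many correlations over 6 libraries, their r values are high by choice and are a description only. ASS1 was most like CYTH1, BAK1 and NIN (Pearson r 0.996, 0.994 and 0.993), and TAMALIN and ZNF513 were among the 3 genes most like KLHL24 (0.998 and 0.997). The 5′ record of ADM was most like SEMA4B, COX15 and CS (0.994, 0.993 and 0.992), and the 3′ record was most like THAP4, PPIL3 and TMEM109 (0.999 or 0.998 each). S1PR1 was most like MMACHC, TTYH3 and ABHD2 (0.981, 0.979 and 0.976), PLAT like CHCHD7, ZNF821 and ABI3BP (0.989, 0.985 and 0.983), and EDN1 like LY6E, HIC1 and RNF213 (0.985, 0.975 and 0.971). KLF2 was most like MAPK12, PIF1 and AAR2 (0.976, 0.960 and 0.958), and none of the 7 rows was among these.

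Other genes listed for the endothelial KLF2 response gave no call either. Of 18 tested genes listed as rising with KLF2 in endothelium, 7 were higher and 11 lower in KLF2 libraries, with a median log2 fold change of -0.069 and 0 past the threshold in limma. Of the 19 found by name only 10 were at a mean of 1 TPM or more, so part of these directions rests on low counts. KLF4, a close relative of KLF2 in vessels, had 123, 239 and 327 normalized counts in KLF2 1 to 3, against 438, 211 and 307 in EV 1 to 3, and the groups overlapped. HMOX1, heme oxygenase, averaged 2625 ± 202 in KLF2 libraries and 2449 ± 149 in EV libraries (SD, n = 3). TIMP3, an inhibitor of matrix proteases, had 824, 707 and 834 in KLF2 1 to 3, against 1043, 988 and 944 in EV 1 to 3. Each KLF2 library lay below each EV library there, at a log2 fold change of -0.33 (SE 0.15, limma unadjusted p = 0.0408, adjusted p = 0.962). The groups did not overlap for 6.65% of all genes tested. TIMP3 was named by a rule that required no overlap and an unadjusted p under 0.05, so neither is a result about it. Of 14 tested genes listed as falling with KLF2, 5 were higher and 9 lower (median -0.071), 0 past the threshold. Among these 14 genes, 9 were at a mean of 1 TPM or more. IL8L2, a chicken counterpart of interleukin 8, averaged 10910 ± 3240 in KLF2 libraries, against 7668 ± 2206 with the empty vector (SD, n = 3; log2 fold change 0.50, SE 0.25, limma unadjusted p = 0.0777, adjusted p = 0.962), and the groups overlapped. IL8L1 and IL6 of the same list were lower, at 1297 ± 253 and 459 ± 103 in KLF2 libraries, against 1369 ± 272 and 534 ± 109 in EV libraries.

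The pathways in which the targets act were likewise without a gene past the threshold in limma (0 in each list). On the nitric oxide side, 12 of 17 tested genes were higher and 5 lower (median 0.12, against -0.006 over all genes). NOS2, the inducible synthase and the only nitric oxide synthase found by name of NOS1, NOS2 and NOS3, had 274, 484 and 401 normalized counts in KLF2 1 to 3, against 619, 460 and 735 in EV 1 to 3. KLF2 2 lay above EV 2, and NOS2 differed by -0.66 on the log2 scale (SE 0.23, 95% interval -1.16 to -0.15, limma unadjusted p = 0.0154, adjusted p = 0.962; exact permutation p = 0.2). NOS2 was chosen for mention after its values were seen. GUCY1B1, a subunit of the nitric oxide receptor guanylate cyclase, averaged 711 ± 140 in KLF2 libraries, against 559 ± 137 with the empty vector (SD, n = 3). GCH1, which starts synthesis of the cofactor of nitric oxide synthases, averaged 1211 ± 27.1 in KLF2 libraries, against 1281 ± 54 in EV libraries (SD, n = 3). GCH1, also listed as rising with KLF2 in endothelium, had no overlap between groups, as for 6.65% of all genes tested (log2 fold change -0.08, SE 0.13, limma unadjusted p = 0.561, adjusted p = 0.962).

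In the coagulation and fibrinolysis list, 11 of 16 tested genes were higher and 5 lower (median 0.094). Of the 17 found by name only 7 were at a mean of 1 TPM or more, so part of these directions rests on low counts. PROS1 and SERPINE2, an anticoagulant cofactor of protein C and an inhibitor of PLAT and other proteases, were abundant, at 12400 and 13893 normalized counts in KLF2 and 12402 and 13547 in EV libraries. PROCR, the protein C receptor, and F3, tissue factor, were barely detected. Their mean normalized counts were 2.36 and 6.11 in KLF2 libraries, against 1.69 and 3.65 in EV libraries.

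Around S1PR1, 9 of 20 tested genes of the sphingosine 1-phosphate list were higher and 11 lower (median -0.018). S1PR2 had 402, 426 and 389 normalized counts in KLF2 1 to 3, against 501, 525 and 469 in EV 1 to 3. Its groups did not overlap, as for 6.65% of all genes tested. Its log2 fold change was -0.30 (SE 0.16, limma unadjusted p = 0.0875, adjusted p = 0.962), and it was chosen for mention after its values were seen. ACER2, a ceramidase that supplies sphingosine, also had no overlap and was higher, at 185 ± 20.6 in KLF2 libraries and 138 ± 12.1 in EV libraries (SD, n = 3; log2 fold change 0.41, SE 0.22, limma unadjusted p = 0.0774, adjusted p = 0.962), and was likewise chosen after its values were seen. Per length S1PR2, at 22.8 to 32.2 TPM, exceeded S1PR1 and S1PR3, which reached 2.16 and 2.05 TPM. For S1PR1 that level rests on an annotated length of 30287 bases, and the gap was smaller in normalized counts. There S1PR2 averaged 406 in KLF2 and 498 in EV libraries, against 219 and 198 for S1PR1. SPHK1, which makes the ligand, averaged 568 ± 119 in KLF2 libraries, against 768 ± 241 with the empty vector (SD, n = 3).

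For the peptides ADM and EDN1, receptor genes were expressed. EDNRA, the endothelin receptor of muscle and stroma, had 3526, 2922 and 1835 normalized counts in KLF2 1 to 3, against 1565, 2363 and 2244 in EV 1 to 3. KLF2 3 lay below EV 2 and EV 3, so the groups overlapped (log2 fold change 0.40, SE 0.25, limma adjusted p = 0.962). CALCRL and RAMP2, which together form an adrenomedullin receptor, averaged 184 and 679 in KLF2 and 197 and 596 in EV libraries. ECE1, which cuts the precursor to active endothelin, averaged 657 ± 132 in KLF2 libraries, against 725 ± 227 in EV libraries. MME, a protease that degrades such peptides, had 5.08, 9.32 and 4.78 normalized counts in KLF2 1 to 3, against 2.96, 0 and 0.955 in EV 1 to 3. Its log2 fold change of 1.85 (SE 0.70, limma unadjusted p = 0.0203, adjusted p = 0.962) rests on a few reads a library. MME was named by the rule that required no overlap and an unadjusted p under 0.05. Of 14 tested genes in this list 9 were higher and 5 lower (median 0.055).

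In the thioredoxin list, to which TXNIP belongs, 10 of 18 tested genes were higher and 8 lower (median 0.022). TXN, thioredoxin itself, averaged 20582 in KLF2 and 20325 in EV libraries, and ARRDC4, a relative of TXNIP, averaged 575 in KLF2 libraries and 638 in EV libraries. Among cullin 3 and its kelch-like adaptors, 12 of 25 were higher and 13 lower (median -0.033). CUL3 averaged 3616 ± 523 in KLF2 libraries, against 3356 ± 331 with the empty vector (SD, n = 3). The regulators that act on KLF2 in endothelium were expressed, with all 17 found by name, of 20 listed, at a mean of 1 TPM or more. Of these 4 were higher and 13 lower, within log2 fold changes of -0.17 and 0.14 (median -0.035).

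**Figure D5:**
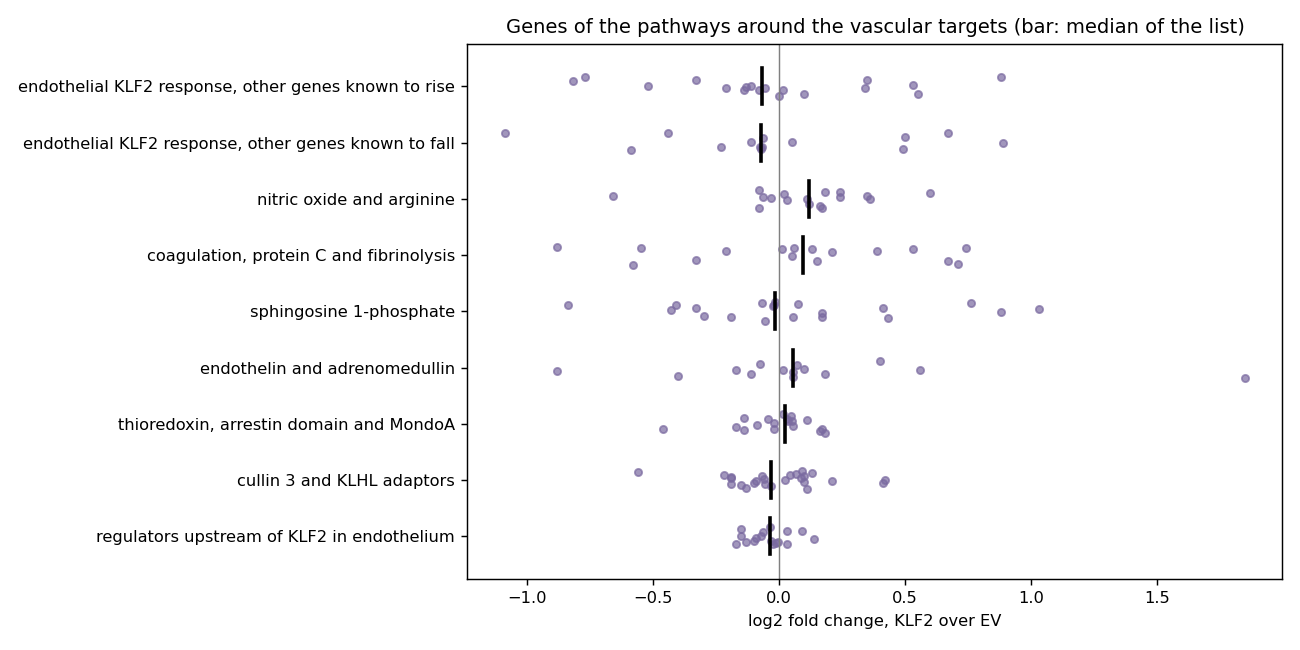
Log2 fold change of KLF2 over EV libraries (horizontal axis) for each tested gene of 9 lists of genes around the vascular targets (1 point per gene, spread vertically for sight), with the median of each list as a black bar. Medians lie between -0.071 and 0.12, and the point farthest right is MME at 1.85.

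In the authors' deposited table KLF2 had a log2 fold change of 1.04 (unadjusted p = 0.000302, adjusted p = 0.9999). For the targets, the log2 fold changes in the authors' deposited table were 0.15 for S1PR1, -0.45 for ASS1, -0.12 and -0.36 for the 5′ and 3′ records of ADM, -0.022 for PLAT, -0.083 for KLHL24 and -0.085 for EDN1. Their unadjusted p-values in the authors' deposited table ran from 0.127 for ASS1 to 0.911 for PLAT, and each adjusted p was 0.9999.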

How the data were processed

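Poly(A)-selected RNA of 6 wells of ICP1 cells was sequenced. The submitters' processing notes name GRCg7b as the build and, as tools, featureCounts 1.5.0-p3, StringTie 1.3.3b, HISAT2 2.0.5 and fastp. Which program scaled the reads is not given there. The authors deposited a signal for every gene in every library, the read count scaled between libraries (normalized count). Reads were recovered by taking a library's lowest value above 0 as 1 read, and 100% of values were then whole to within 1e-06 of their size. The deposited table also holds the authors' log2 fold change with its p-value, raw and adjusted.

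Robust limma-trend (limma 3.58.1, R 4.3.3) was run on log2(normalized count + 1) for genes whose mean reached 1 in KLF2 or EV libraries. Tests were two-sided, and p-values were adjusted by Benjamini-Hochberg over all genes and called under 0.05. Log2 differences are on this scale, which understates those of low genes. One fit compared KLF2 with EV, and another used log2 KLF2 as the covariate. Correlations used exact permutation over all 720 orders of the libraries. TPM was computed from recovered reads and the table's gene lengths. edgeR 4.0.16 and DESeq2 1.42.0 on recovered reads were alternatives. The fits of KLF2 against EV and on log2 KLF2 were tried on simulated counts, drawn independently for each gene and so without the main axis. The fit with group as a second term was not tried on simulated counts.

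Members and lists were chosen with earlier results of these data known. Lists were matched by exact symbol, taking the most abundant record where a symbol had several. The rule for named genes took the 9 members and KLF2, the 3 genes most like each, and, from each pathway list (not the marker lists), members past the threshold or, failing that, the 2 with the lowest unadjusted p under 0.05 and no overlap; that gave TIMP3 and MME. One gene most like KLHL24 is not reported here. Other list genes were named after their values were seen. The fit on the first principal component was added after seeing the data. No sequence of these genes is shown.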

Additional observations from a re-analysis of the deposited data

How the results depend on the processing

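The count of genes past the threshold between KLF2 and EV was 0 under the other alternatives and 4 without EV 1 and KLF2 3 together, where KLF2 passed (log2 fold change 0.93, adjusted p = 0.0184); the count of target rows stayed 0 under all alternatives run. For the slope on KLF2, 3945 genes and 3 target rows passed with group as a second term, against 0 and 0 otherwise; there the slope of EDN1 turned to 0.061. Without EV 1 and KLF2 3 together the fold change of the 5′ record of ADM turned to 0.041, and slopes turned to 0.24 for S1PR1, -0.44 for ASS1, -0.30 for the 3′ record of ADM, -0.11 for PLAT and -0.019 for KLHL24. The cause was not tested. When each library was left out, counts ranged from 0 to 0. Log2 fold changes ranged from -0.066 to 0.30 for S1PR1, -0.81 (without KLF2 3) to -0.26 (without EV 1 or KLF2 1) for ASS1, -0.21 to 0.11 and -0.99 to 0.0039 for the 5′ and 3′ records, -0.13 to 0.088 for PLAT and -0.18 to 0.041 for KLHL24 and -0.14 to -0.049 for EDN1. Slopes ranged from -0.20 to 0.25 for S1PR1, -0.27 to 0.23 for ASS1, 0.051 to 0.15 and -0.14 to 0.45 for the 5′ and 3′ records, -0.14 to 0.13 for PLAT, 0.042 to 0.14 for KLHL24 and -0.067 to 0.0064 for EDN1. Correlations with KLF2 ranged from -0.50 to 0.45 for S1PR1, -0.27 to 0.32 for ASS1, 0.14 to 0.84 (without EV 1) and -0.094 to 0.42 for the 5′ and 3′ records, -0.39 to 0.55 for PLAT, 0.12 to 0.65 for KLHL24 and -0.57 to 0.06 for EDN1. Correlations also turned sign by Spearman (0.20 for S1PR1, -0.029 for PLAT, 0.029 for EDN1), without the libraries farthest in KLF2 (0.071 for S1PR1, -0.32 for ASS1, -0.11 for the 3′ record), and for EDN1 as deviations from group means (0.42). All other values of single rows kept sign and side of the threshold, apart from the within-group slopes of ASS1 and both records of ADM. A fit with a replicate block called 0 genes; in this balanced design it cannot move a fold change (that of ASS1 is -0.49 in both fits). The replicate numbers are not stated to mark a shared batch, so they were not read as pairs. Same-numbered libraries had residual correlations of -0.6, 0.144 and -0.511, and whether they share a batch was not tested. At 3 wells a group, the narrowest interval of a fold change was that of PLAT, 0.772 to 1.26.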
